A study of Mus musculus with 27 samples.

Results

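The 33 genes described here carry fatty acid oxidation in mitochondria and peroxisomes and the programme of the nuclear receptor PPAR alpha, followed through mouse intestine, ileal organoids and ileal tumours with and without Taf4. They were picked by gene symbol, with earlier results of these data known. All 33 were found in each of the 3 deposited tables, which together hold 34134 distinct gene symbols. Taf4 is a subunit of TFIID, the general transcription factor that places RNA polymerase II at promoters. RNA-seq was done on 27 samples in 9 groups of 3, all from mice of mixed C57Bl6 and 129sv background.

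The adult KO group is ileum of Taf4lox/lox::VilCreERT2 mice labelled as 8 weeks old and injected with tamoxifen, and the adult WT group is ileum of Taf4lox/lox mice of the same age. The labels give sunflower oil for these controls, whereas the study's methods give them tamoxifen too. The embryo KO group is E17.5 intestine of Taf4lox/lox::VilCre fetuses, in which Cre is active without a drug, and the embryo WT group is Taf4lox/lox littermates. The labels also name tamoxifen and sunflower oil for the embryos. Organoids came from crypts of the ileum of mice aged 4 months. Those of the 4-OHT group carried Taf4lox/lox and VilCreERT2 and received 1 µM 4-hydroxytamoxifen (4-OHT) for 3 days, by the methods and the labels of all but 1 sample, whose label names 4-OHT with neither dose nor time. Those of the 4-OHT with EPZ group also received 1 µM EPZ6438, which blocks Ezh2, a histone methyltransferase of the Polycomb group, and were grown for 11 days by the labels and longer by the methods. Control organoids were labelled as ethanol-treated, and the methods describe 4-OHT-treated Taf4lox/lox organoids without Cre. The organoid samples of a group were separate wells. The tumour groups were ileal tumours of tamoxifen-injected Apc+/Δ14 mice, with Taf4lox/lox and VilCreERT2 (Taf4KO-APC) or without the deletion of Taf4 (APC). The villin promoter drives both Cre transgenes, so Taf4 was lost in epithelium only, while tissue samples also held stroma and muscle.

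In fatty acid oxidation, acyl-CoA is loaded onto carnitine, carried into the mitochondrion and shortened in rounds of dehydrogenation, hydration, a further oxidation and thiolysis. Peroxisomes shorten very long chains by the same chemistry with their own enzymes. PPAR alpha binds fatty acids and, paired with a retinoid X receptor, switches on most of these genes. In the intestine the pathway is most active in villus enterocytes, which take up dietary fat, and it is strong in the suckling gut.

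For embryos, adults and organoids the files give 1 mean of normalized read counts for each gene and group, printed here as the authors' mean, with no spread between the 3 samples. A difference is therefore given as log2((mean + 1)/(mean + 1)) without a test, and is called past 2 times when it exceeds 1 in size and the higher mean reaches 10. Normalized counts do not correct for transcript length, so levels are compared between groups and not between genes. The group means summed to 11.9 to 16.6 M normalized counts in the mouse table and 14.0 to 16.2 M in the organoid table, which were normalized apart. Taf4a, the symbol under which the mouse table lists Taf4, averaged 494 in adult KO and 373 in adult WT, and 300 in embryo KO and 226 in embryo WT. In organoids it averaged 201 with EPZ, 286 with 4-OHT and 264 in control, and tumours held 13.01 to 13.9 FPKM of Taf4 in Taf4KO-APC and 10.5 to 11.4 FPKM in APC. A sum over the whole gene, part of which is deleted, therefore did not check the labels.

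With Taf4 deleted, most of the 33 genes stood above WT in adult ileum, by a small median, and nearly all stood below WT in fetal intestine. In adult KO, 28 of the 33 genes were above WT (44.1% of all 16748 genes above the floor were), and the median log2 ratio was 0.23, against -0.05 over all genes. Past 2 times, 2 were higher and none lower, where 3.58% of all genes were higher and 6.58% lower. In embryo KO, 32 of the 33 were below WT (46.7% of all 16484 genes), with a median of -0.76 against 0.04 over all genes. There 11 were lower past 2 times and none higher, where 8.32% of all genes were lower and 2.16% higher. Both medians shifted when the group means were scaled to equal totals, which raised the median of all genes to 0.13 in adults and 0.18 in embryos and gave 4 genes higher in adults and 6 lower in embryos past 2 times. Under that scaling 28 genes were still above WT in adult KO and 30 below WT in embryo KO.

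**Figure D1:**
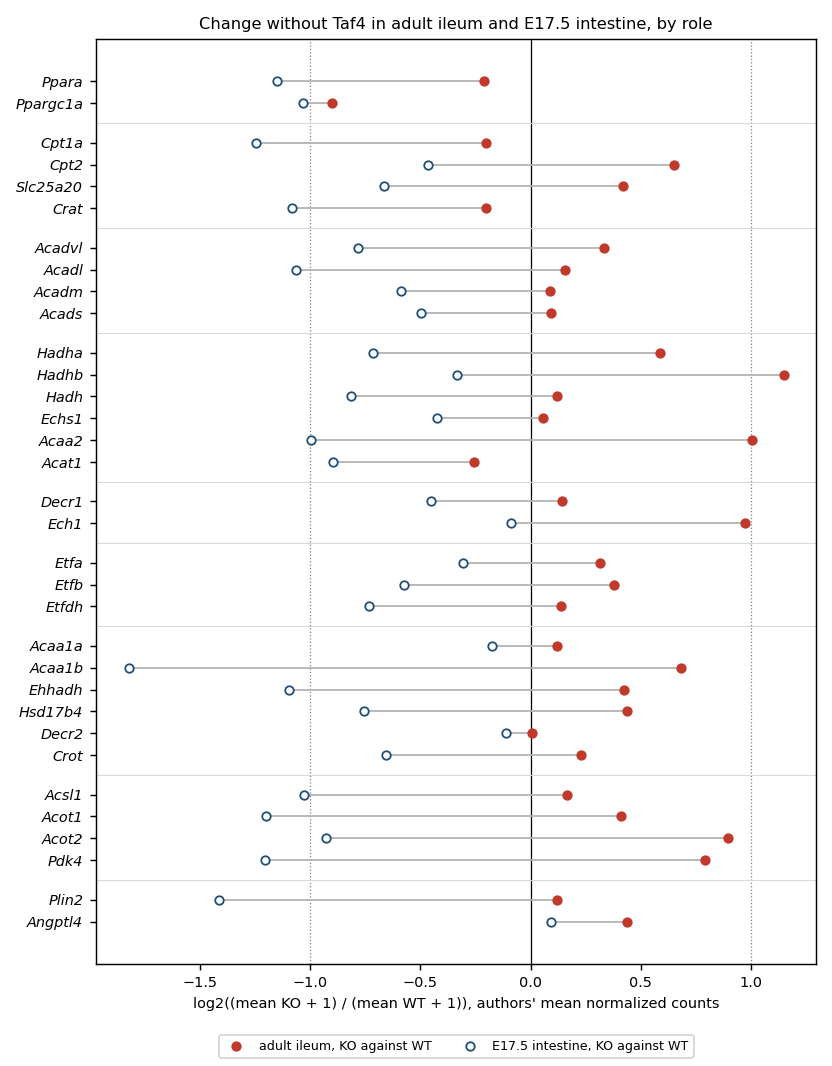
Change of each of the 33 genes without Taf4, as log2((mean KO + 1)/(mean WT + 1)) of the authors' mean normalized counts, for adult ileum (filled) and E17.5 intestine (open), grouped by role and joined by a line. The filled point lies right of the open one for all 33 genes, and the dotted lines mark 2 times in either direction.

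The regulators and the genes of the carnitine shuttle were all lower in embryo KO. Ppara, the receptor itself, averaged 543 in adult KO and 629 in adult WT, and 309 in embryo KO and 686 in embryo WT (log2 ratios -0.21 and -1.15). Ppargc1a, a coactivator that drives mitochondrial and oxidative genes, was lower at both stages, at 239 in adult KO and 449 in adult WT, and 120 in embryo KO and 246 in embryo WT. Its log2 ratios were -0.90 and -1.03, and in adults it was the lowest ratio of the 33. Cpt1a, which makes acylcarnitine in the rate-setting step, had 1089 in adult KO and 1254 in adult WT, and 466 in embryo KO and 1108 in embryo WT. Slc25a20 moves acylcarnitine across the inner membrane and Cpt2 turns it back to acyl-CoA. Slc25a20 had 1459 in adult KO and 1089.5 in adult WT, and 541 in embryo KO and 858 in embryo WT. Cpt2 had 4627 in adult KO and 2950.2 in adult WT, and 2365 in embryo KO and 3267 in embryo WT. Crat, which makes acetylcarnitine, had 3244 in adult KO and 3737 in adult WT, and 1705 in embryo KO and 3607 in embryo WT. All 4 shuttle genes were lower in embryo KO, past 2 times for Cpt1a and Crat, while in adults Cpt2 and Slc25a20 were higher than WT and Cpt1a and Crat slightly lower.

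The acyl-CoA dehydrogenases carry out the opening step of each round, sorted by chain length. Acadl, for long chains, had 2047 in adult KO and 1836 in adult WT, and 2665 in embryo KO and 5567 in embryo WT. Acadvl, for very long chains, had 2157 in adult KO and 1710.2 in adult WT, and 969 in embryo KO and 1667 in embryo WT. Acadm and Acads, for medium and short chains, differed by 0.09 each in adults and by -0.59 and -0.50 in embryos. The electrons leave through the flavoprotein subunits Etfa and Etfb and their dehydrogenase Etfdh, whose log2 ratios were 0.32, 0.38 and 0.14 in adult KO and -0.30, -0.57 and -0.73 in embryo KO. None of these transfer genes passed 2 times at either stage.

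The highest adult ratios were those of Hadhb, Acaa2 and Ech1, while other genes of the later steps of the mitochondrial cycle differed less. Hadhb, the thiolase subunit of the trifunctional protein, had 2849 in adult KO and 1285 in adult WT (log2 ratio 1.15), and 1572 in embryo KO and 1978 in embryo WT (-0.33). Hadha, the subunit that joins Hadhb in that enzyme, had 4916 in adult KO and 3269 in adult WT, and 3073 in embryo KO and 5038 in embryo WT. Acaa2, a thiolase of the mitochondrial matrix, had 1993 in adult KO and 991 in adult WT (1.01), and 3075 in embryo KO and 6127 in embryo WT (-0.99). Ech1, which shifts double bonds so that unsaturated chains can be oxidised, had 6689.8 in adult KO and 3412 in adult WT (0.97), and 3755 in embryo KO and 3998 in embryo WT (-0.09). Hadhb, Acaa2 and Ech1 thus held the 3 highest adult ratios, with Ech1 just under the threshold. Acat1, the thiolase that cleaves acetoacetyl-CoA, had 3359 in adult KO and 4013 in adult WT, and 5076 in embryo KO and 9451 in embryo WT. Hadh, Echs1 and Decr1, a dehydrogenase, a hydratase and a dienoyl-CoA reductase, differed by 0.12, 0.06 and 0.14 in adults and by -0.82, -0.42 and -0.45 in embryos.

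Hadha and Hadhb lie head to head on chromosome 5 of mm9, at chr5:30444841-30481702 and chr5:30481788-30511133, with 85 bases between the gene models. The Hadhb promoter window is shown because it overlaps that of Hadha. It covers chr5:30481543-30481842 on the plus strand, from 250 bases before the start to 50 bases after it, and the capitals mark the 228 bases it shares with the Hadha window.
Hadhb: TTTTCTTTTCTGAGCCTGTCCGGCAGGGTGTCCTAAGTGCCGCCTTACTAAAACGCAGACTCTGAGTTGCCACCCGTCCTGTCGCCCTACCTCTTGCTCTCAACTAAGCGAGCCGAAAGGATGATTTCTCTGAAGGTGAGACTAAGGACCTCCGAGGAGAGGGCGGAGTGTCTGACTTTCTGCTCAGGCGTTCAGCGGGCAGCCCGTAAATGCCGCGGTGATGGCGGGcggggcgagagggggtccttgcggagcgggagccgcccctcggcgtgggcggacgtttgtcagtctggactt
The adult log2 ratio of Hadhb was 1.15 and that of Hadha 0.59, and the embryo ratios were -0.33 and -0.71.

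All 6 peroxisomal genes were higher in adult KO and lower in embryo KO, with Acaa1b and Ehhadh furthest down in embryos. Ehhadh, a bifunctional hydratase and dehydrogenase, had 724 in adult KO and 539.9 in adult WT, and 288 in embryo KO and 616 in embryo WT. Hsd17b4, its counterpart for branched and very long chains, had 4913 in adult KO and 3624 in adult WT, and 2899 in embryo KO and 4901 in embryo WT. Acaa1b, a peroxisomal thiolase, was near the floor, at 34.8 in adult KO and 21.3 in adult WT, and 15.2 in embryo KO and 56.3 in embryo WT. Its paralogue Acaa1a had 3213 in adult KO and 2959.8 in adult WT, and 1234 in embryo KO and 1394 in embryo WT. Crot, which passes shortened chains on as carnitine esters, differed by 0.23 in adults and -0.65 in embryos. Decr2, a peroxisomal reductase, differed by 0.01 and -0.11.

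All 4 genes that set the supply and fate of acyl-CoA were lower in embryo KO, with a median log2 ratio of -1.11, close to the -1.09 of the regulators. Acsl1, which activates long-chain fatty acids, had 724 in adult KO and 645 in adult WT, and 1595 in embryo KO and 3249 in embryo WT. Acot1 and Acot2, cytosolic and mitochondrial thioesterases, release free fatty acid from acyl-CoA. Acot1 had 67.2 in adult KO and 50.3 in adult WT, and 782 in embryo KO and 1800.2 in embryo WT. Acot2 had 119.5 in adult KO and 63.8 in adult WT, and 134 in embryo KO and 257 in embryo WT. Pdk4, which blocks pyruvate dehydrogenase and so favours fat over glucose, had 159 in adult KO and 91.3 in adult WT, and 36.0 in embryo KO and 84.2 in embryo WT. Plin2, the coat protein of lipid droplets, had 2464 in adult KO and 2269.5 in adult WT, and 3842 in embryo KO and 10226 in embryo WT (0.12 and -1.41). Angptl4, a secreted inhibitor of lipoprotein lipase, stood apart as the 1 gene not lower in embryo KO, at 775 in adult KO and 572 in adult WT, and 131 in embryo KO and 122 in embryo WT.

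Put side by side, 27 genes were higher in adult KO and lower in embryo KO, a pattern of 16.5% of the 15199 genes above the floor at both stages. Of the other 6, Ppara, Ppargc1a, Cpt1a, Crat and Acat1 were lower at both stages and Angptl4 was higher at both. The adult log2 ratio exceeded the embryo ratio for all 33 genes (46.5% of all genes) and by more than 1 for 17 (6.03%). The median difference, adult minus embryo, was 1.04 for the 33 genes and -0.04 over all genes. It was above 0 for all 33 also with group means scaled to equal totals and with a pseudocount of 10. The Cre line, the time since deletion and the tissue sampled differ together with the stage and cannot be told apart from it.

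Markers of cell types differed at both stages. In adult KO, 6 of 7 enterocyte markers above the floor were below WT (summed level 79664 in KO and 126545 in WT), whereas the disaccharidase Sis had 25499.7 in KO and 6267 in WT. In embryo KO all 7 were below WT (27198 in KO and 133548 in WT), as were 6 of 6 general epithelial markers (29752 and 47588) and 10 of 10 genes of mitochondrial content (79880.0 and 114837, median -0.53). In adult KO the mitochondrial genes had a median of -0.08, with 3 of 10 above WT (107857 and 122033). The 5 fibroblast markers summed to 158267 in embryo KO and 88731 in embryo WT, and the 6 smooth muscle markers, all higher in KO, to 70704 and 48757. In adult KO all 4 T and NK cell markers were lower past 2 times (1088 in KO and 4423 in WT), and all 3 B cell markers were higher (445 in KO and 193 in WT). Hepatocyte markers summed to 72.2 in embryo KO and 1521 in embryo WT. Adipocyte markers summed to 1300.1 in adult KO and 1642 in adult WT, and to 2183 in embryo KO and 2014 in embryo WT. Adipoq was listed at 0 in both embryo groups, while Fabp4 had 2063 in embryo KO and 1157 in embryo WT, and Cidec 117 and 854. The part of these cell types in the results was not tested, and in bulk samples fewer cells of a type and less RNA per cell cannot be told apart.

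A PPAR alpha response element is a direct repeat of AGGTCA spaced by 1 base of any kind (AGGTCA, then N, then AGGTCA). RefSeq promoter windows of 300 bases, from a GRCm38.p6 table, were found for 27 of the 33 genes and each matched mm9 exactly, while Crat, Acaa2, Acat1, Decr1, Hsd17b4 and Angptl4 had none. On either strand no window held the full element, against 0.0444% of all 27025 promoters. With 1 mismatch allowed still none did (0.544% of all promoters), with 2 allowed 4 of 27 did (14.8%, against 3.81%) and with 3 allowed 8 did (29.6%, against 24.4%). The excess at 2 mismatches was thus smaller in proportion at 3. With 1 mismatch the share of all promoters was too low for 0 of 27 windows to show a lack. The 4 are shown with 10 bases on each side and the element in capitals, on the strand of the gene, at chr4:86316166-86316198, chr9:55360105-55360137, chr7:147302381-147302413 and chr9:108564463-108564495 of mm9.
Plin2: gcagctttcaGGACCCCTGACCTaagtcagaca
Etfa: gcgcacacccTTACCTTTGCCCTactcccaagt
Echs1: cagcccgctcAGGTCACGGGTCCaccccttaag
Slc25a20: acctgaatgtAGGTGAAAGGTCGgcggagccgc
The first base of the element lay 225 bases before the start of Plin2, 77 before that of Etfa and 83 before that of Echs1, and at base 7 after the start of Slc25a20. In Plin2 and Etfa it read on the opposite strand. Their embryo log2 ratios were -1.41 for Plin2, -0.67 for Slc25a20, -0.42 for Echs1 and -0.30 for Etfa. The TATA box TATAAA, searched on both strands, was in 0 of the 27 windows and in 14.2% of all promoters, and the windows held a median of 17 CG pairs, against 7 in all promoters. Each match is a description of letters and not a binding site.

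Adult and embryo levels were then compared within KO and within WT. Adult KO mice lost Taf4 only as adults, whereas embryo KO lacked it from fetal life, so the KO contrast sets different models of Taf4 loss side by side. These contrasts share the 4 mouse groups with the comparisons above. In KO, 8 genes were higher and 2 lower past 2 times in adult than in embryo (19.1% and 17.2% of all genes). In WT, 2 were higher and 8 lower (18.3% and 15.2% of all genes). The medians were 0.68 in KO and -0.23 in WT. With group means scaled to equal totals, which lowered the median of all genes to -0.28 in KO and -0.33 in WT, 5 were higher and 2 lower in KO and 1 higher and 10 lower in WT. Acot1 showed the steepest stage difference, with 67.2 in adult KO and 782 in embryo KO, and 50.3 in adult WT and 1800.2 in embryo WT. Angptl4 ran the other way, with log2 ratios of adult to embryo of 2.56 in KO and 2.21 in WT. The genes lower past 2 times in adult WT were Acot1, Acaa2, Acsl1, Plin2, Acot2, Acadl, Acaa1b and Acat1, and in KO only Acot1 and Acsl1 of these were lower past 2 times.

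**Figure D2:**
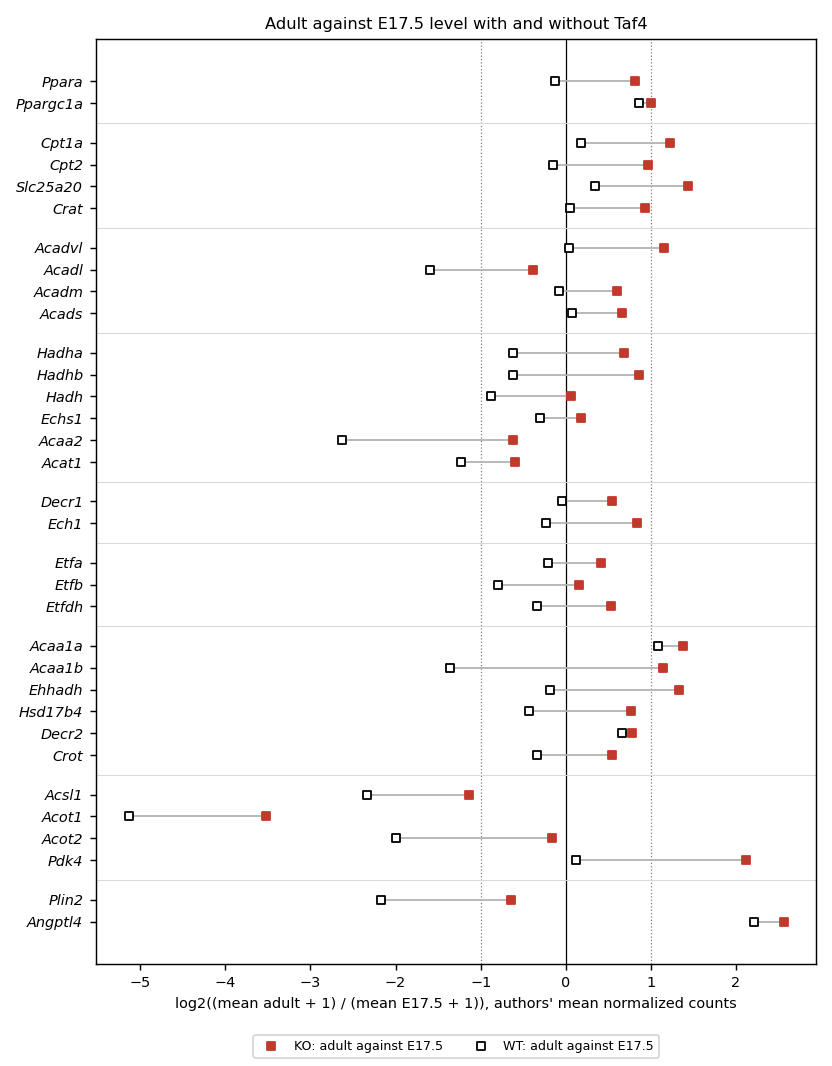
Adult against E17.5 level of each gene as log2((mean adult + 1)/(mean E17.5 + 1)) of the authors' mean normalized counts, in KO (filled squares) and WT (open squares), grouped by role. Acot1 lies at -3.52 in KO and -5.13 in WT, and Angptl4 at 2.56 and 2.21, the far ends of the plot.

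In ileal organoids, most of the pathway was higher in the 4-OHT group than in controls. By the labels the controls lacked 4-OHT, so the drug and the loss of Taf4 cannot be told apart. By the methods they received it and lacked Cre, and so came from other mice than the 4-OHT group. In that case the organoid line and the loss of Taf4 cannot be told apart. Of 31 genes above the floor, 28 were higher with 4-OHT (50.2% of all genes), 11 of them past 2 times, and none was lower past 2 times (11.9% of all 13929 genes were higher and 11.3% lower). The median log2 ratio was 0.80, against 0.00 over all genes. With group means scaled to equal totals 7 passed 2 times. Pdk4 and Angptl4 were under the floor, with 0.179 and 0.390 for Pdk4 and 1.36 and 3.69 for Angptl4 in 4-OHT and control organoids. The lower genes were Acat1, Acot1 and Ppargc1a.

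With EPZ, 13 of 32 genes were lower past 2 times than with 4-OHT alone and 1 was higher (18% and 17.2% of all 14109 genes), with a median of -0.78. The contrasts of 4-OHT with control and of EPZ with 4-OHT use the same 4-OHT group. The EPZ organoids were cultured for longer, so EPZ and time in culture cannot be told apart. Against control, 4-OHT with EPZ left 5 genes higher and 2 lower past 2 times (12.4% and 13.3% of all 14001 genes), and 3 higher and 3 lower with group means scaled to equal totals.

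The peroxisomal genes had a median log2 ratio of 1.40 with 4-OHT against control and of -1.50 with EPZ against 4-OHT. Acaa1b averaged 28.7 with EPZ, 1378 with 4-OHT and 0.690 in control. Ehhadh had 438 with EPZ, 1886 with 4-OHT and 374 in control. Hsd17b4 had 3325 with EPZ, 8517 with 4-OHT and 2908 in control. All 6 peroxisomal genes were higher with 4-OHT than in control and lower with EPZ than with 4-OHT. Acaa1a had 951 with EPZ, 2961 with 4-OHT and 1452 in control. Crot had 573 with EPZ, 1041 with 4-OHT and 438 in control.

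Acaa1a and Acaa1b are near copies on chromosome 9 (chr9:119250412-119259413 and chr9:119057141-119066211 in mm9), with coding sequences identical at 96.5% of 1275 aligned bases and along a stretch of 327 bases. The authors kept uniquely aligned reads, so reads from shared stretches were lost and the split between the copies is uncertain. The same holds for Acot1 and Acot2 on chromosome 12, identical at 95.5% of 1239 aligned coding bases. The promoter windows of the thiolase pair are shown because their organoid levels differed so much, Acaa1b being near 0 in control where Acaa1a was not. They cover chr9:119250162-119250461 on the plus strand for Acaa1a and chr9:119066162-119066461 on the minus strand for Acaa1b, in lower case throughout since no searched motif was found.
Acaa1a: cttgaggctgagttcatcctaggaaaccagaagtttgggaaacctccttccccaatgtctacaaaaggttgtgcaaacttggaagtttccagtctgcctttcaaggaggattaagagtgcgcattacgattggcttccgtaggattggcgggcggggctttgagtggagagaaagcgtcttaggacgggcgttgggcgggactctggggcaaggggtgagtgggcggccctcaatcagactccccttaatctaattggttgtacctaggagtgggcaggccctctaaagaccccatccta
Acaa1b: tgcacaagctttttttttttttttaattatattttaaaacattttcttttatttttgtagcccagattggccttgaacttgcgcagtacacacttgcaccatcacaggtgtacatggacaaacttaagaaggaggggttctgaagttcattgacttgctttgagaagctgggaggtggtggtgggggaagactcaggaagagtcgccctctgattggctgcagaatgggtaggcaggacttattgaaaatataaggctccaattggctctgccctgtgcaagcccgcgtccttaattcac
Between the windows, 167 of 262 aligned bases were identical (63.7%), with 10 CG pairs in Acaa1a and 4 in Acaa1b.

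Among the regulators and the shuttle, Ppara had 89.2 with EPZ, 700.0 with 4-OHT and 164 in control, and Ppargc1a had 76.9 with EPZ, 104 with 4-OHT and 131 in control. Cpt1a had 362 with EPZ, 839 with 4-OHT and 607 in control. Crat had 825 with EPZ, 4053 with 4-OHT and 1357 in control. In these organoids Ppara and Crat were thus past 2 times higher with 4-OHT, while in embryo KO both were past 2 times lower than WT. Cpt2 had 1593 with EPZ, 3216 with 4-OHT and 1552 in control. Slc25a20 had 608 with EPZ, 629 with 4-OHT and 334 in control.

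In the mitochondrial cycle, Acaa2 had 2309 with EPZ, 4936 with 4-OHT and 2381 in control, so its level with EPZ was close to control. Hadhb and Ech1 were not. Hadhb had 3420.1 with EPZ, 3009 with 4-OHT and 1448 in control, and Ech1 had 7002 with EPZ, 7030.2 with 4-OHT and 3103 in control. Both were past 2 times above control in each treated group. Acat1, the thiolase of ketone metabolism, was lower with 4-OHT, at 5375 with EPZ, 3713 with 4-OHT and 6298 in control. The electron transfer subunits Etfa and Etfb were highest with EPZ, at 7224 and 7982, against 5411 and 5893 with 4-OHT and 4700.4 and 4500.1 in control.

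Of the targets outside the cycle, Plin2 had 1905 with EPZ, 4374 with 4-OHT and 2486 in control. Acot1 had 558 with EPZ, 1025 with 4-OHT and 1673 in control. Angptl4 averaged 216 with EPZ, 1.36 with 4-OHT and 3.69 in control, which made it the 1 gene past 2 times higher with EPZ than with 4-OHT. Acot2 had 41.5 with EPZ, 187 with 4-OHT and 147 in control.

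**Figure D3:**
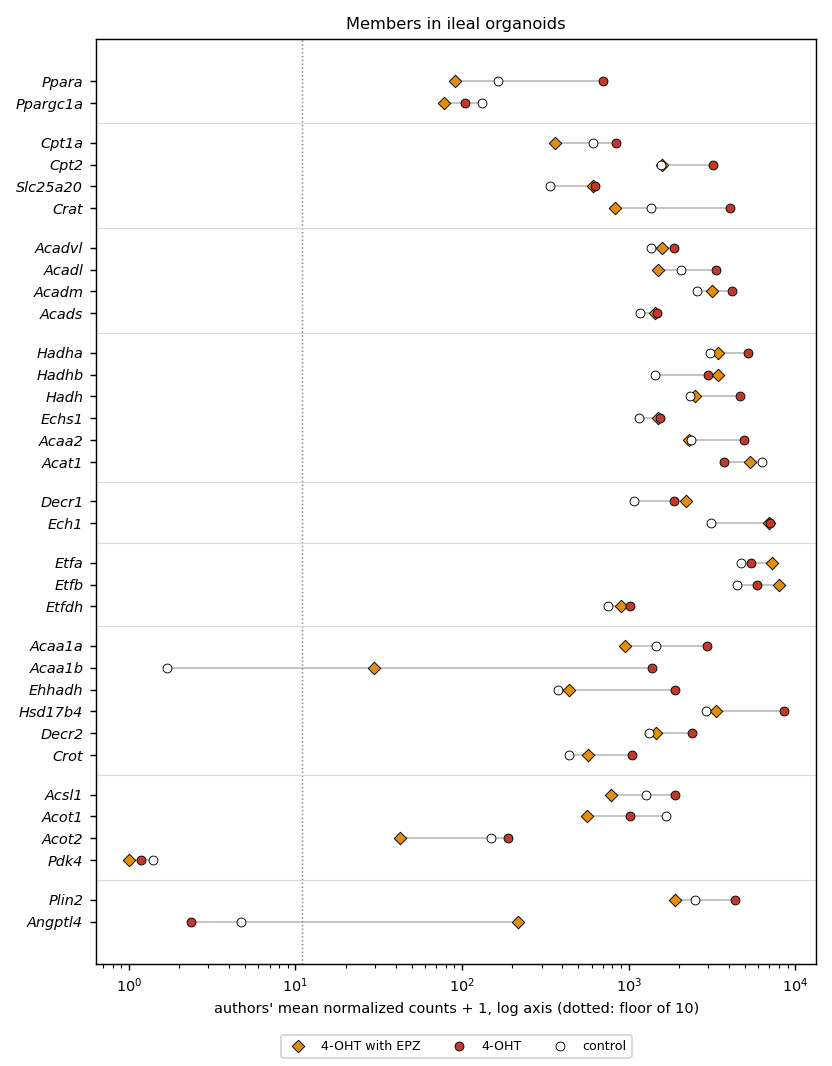
Authors' mean normalized counts plus 1 of each gene on a log axis in organoids treated with 4-OHT and EPZ (diamonds), with 4-OHT (red circles) and in control (open circles), grouped by role; the dotted line marks the floor of 10. Acaa1b spans 0.690 in control to 1378 with 4-OHT, and Pdk4 stays under the floor in all groups.

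Markers of cell state differed between the organoid groups as well. All 8 enterocyte markers were higher with 4-OHT than in control and lower with EPZ than with 4-OHT, with summed levels of 28019 with EPZ, 109858 with 4-OHT and 28334 in control. All 4 genes of dividing cells went the opposite way (16965 with EPZ, 4545 with 4-OHT and 20922 in control). The 10 genes of mitochondrial content summed to 151364 with EPZ, 126644 with 4-OHT and 139169 in control. Fibroblast markers summed to 5.80 with EPZ, 16.9 with 4-OHT and 34.1 in control. The part of these shifts in the result was not tested.

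In tumours the files give FPKM for each of 6 libraries, so each gene could be tested with limma on log2(FPKM + 1), with Benjamini-Hochberg adjustment over 13794 genes whose mean in either group reached 1 FPKM. Depth, recovered from the step of 1 read, was 23.02 M to 39.2 M reads, and the 33 genes held at least 50 reads in every library. The third Taf4KO-APC library, labelled with both animal numbers of the other libraries of its group, lay between those libraries for 63.4% of 9747 well-expressed genes, whereas each of the other 5 libraries lay between its partners for 16.4 to 39.6%. Its log2 value deviated from their mean with an SD of 0.14, against 0.53 between those libraries. It may not be an independent sample, so the counts of calls and the tested fold changes or their adjusted p are given with and without it. APC library S1 also stood apart, with B cell markers summing to 120.1 FPKM, against 3.01 and 7.95 in the other APC libraries and 1.49 to 3.20 in Taf4KO-APC.

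Differences of the 33 genes in tumours were small and mostly upward. The log2 fold change was above 0 for 28 of 33 (67% of all genes) and its median was 0.24, against 0.14 over all genes. Without the third Taf4KO-APC library 27 were above 0, with a median of 0.22 against 0.13 over all genes. The margin over all genes depended on the other 2 libraries of that group. Without Taf4KO-APC library S2 the median of the 33 genes was 0.17, against 0.18 over all genes. Without Taf4KO-APC library S1 it was 0.32, against 0.10. Acot1 was the only gene called higher and none was called lower (limma, adjusted p under 0.05, which called 1.23% of all genes higher and 0.993% lower), while 10 had an unadjusted p under 0.05, all higher, as had 20.7% of all genes. Without the third Taf4KO-APC library limma called 0 of the 33 genes and 0% of all genes, and 5 of the 33 had an unadjusted p under 0.05 and were higher, as were 10% of all genes. The groups did not overlap for 8 of the 33 genes, all higher in Taf4KO-APC, where 26.9% of all genes had that pattern.

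The reads of Acot1 and Acot2 may be split between them, as said above. Acot1 had 9.22, 7.92 and 10.3 FPKM in Taf4KO-APC tumours S1 to S3, against 4.53, 5.04 and 3.54 FPKM in APC tumours. The log2 fold change was 0.92 ± 0.15 (SE, limma adjusted p = 0.0460, n = 3 each), and 0.84 ± 0.18 with an adjusted p of 0.262 without the third Taf4KO-APC library. The call was lost without any 1 of the 6 libraries. Acot2 had 3.61, 2.35 and 3.27 FPKM in Taf4KO-APC, against 1.99, 1.74 and 1.17 FPKM in APC (log2 fold change 0.63, limma adjusted p = 0.115, and 0.355 without the third Taf4KO-APC library). Both thioesterases were thus higher in every Taf4KO-APC library than in any APC library, as were 26.9% of all genes.

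Acaa2 had 63.3, 68.7 and 68.7 FPKM in Taf4KO-APC, against 49.8, 35.8 and 36.7 FPKM in APC. Its log2 fold change was 0.72 ± 0.14 (limma adjusted p = 0.0610), and 0.70 ± 0.18 without the third Taf4KO-APC library (adjusted p = 0.294). Ech1 had 92.6, 144.1 and 122 FPKM in Taf4KO-APC, against 88.9, 58.6 and 69.1 FPKM in APC, a log2 fold change of 0.72 ± 0.21 (limma adjusted p = 0.108, and 0.332 without the third Taf4KO-APC library). Acaa2 and Ech1 did not overlap between groups, a pattern of 26.9% of all genes, and their differences missed the threshold. Crot had 35.4, 39.0 and 36.6 FPKM in Taf4KO-APC, against 26.7, 28.2 and 29.1 FPKM in APC (limma adjusted p = 0.0689). Echs1, Etfb and Hsd17b4 had limma adjusted p of 0.0874, 0.121 and 0.131. Without the third Taf4KO-APC library the limma adjusted p of these 4 genes were 0.308 for Crot, 0.329 for Echs1, 0.377 for Etfb and 0.363 for Hsd17b4. Hadhb had 63.2, 77.9 and 73.6 FPKM in Taf4KO-APC, against 67.2, 49.7 and 44.5 FPKM in APC, so S1 of APC lay within the Taf4KO-APC range (limma adjusted p = 0.174, and 0.409 without the third Taf4KO-APC library).

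The regulators and Cpt1a did not differ detectably. Ppara had 2.36, 7.26 and 3.66 FPKM in Taf4KO-APC, against 4.92, 1.66 and 2.24 FPKM in APC (log2 fold change 0.45 ± 0.42, limma adjusted p = 0.503). Ppargc1a had 2.89, 3.59 and 2.92 FPKM in Taf4KO-APC, against 5.36, 3.47 and 2.86 FPKM in APC (-0.22 ± 0.21, limma adjusted p = 0.512). Cpt1a had 44.9, 53.6 and 43.9 FPKM in Taf4KO-APC, against 50.6, 27.1 and 32.1 FPKM in APC (0.41 ± 0.23, limma adjusted p = 0.286). In all 3 the libraries of the groups overlapped, and without the third Taf4KO-APC library the limma adjusted p were 0.623 for Ppara, 0.721 for Ppargc1a and 0.446 for Cpt1a. The remaining genes had limma adjusted p of 0.180 to 0.951, and of 0.423 to 0.972 without that library.

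**Figure D4:**
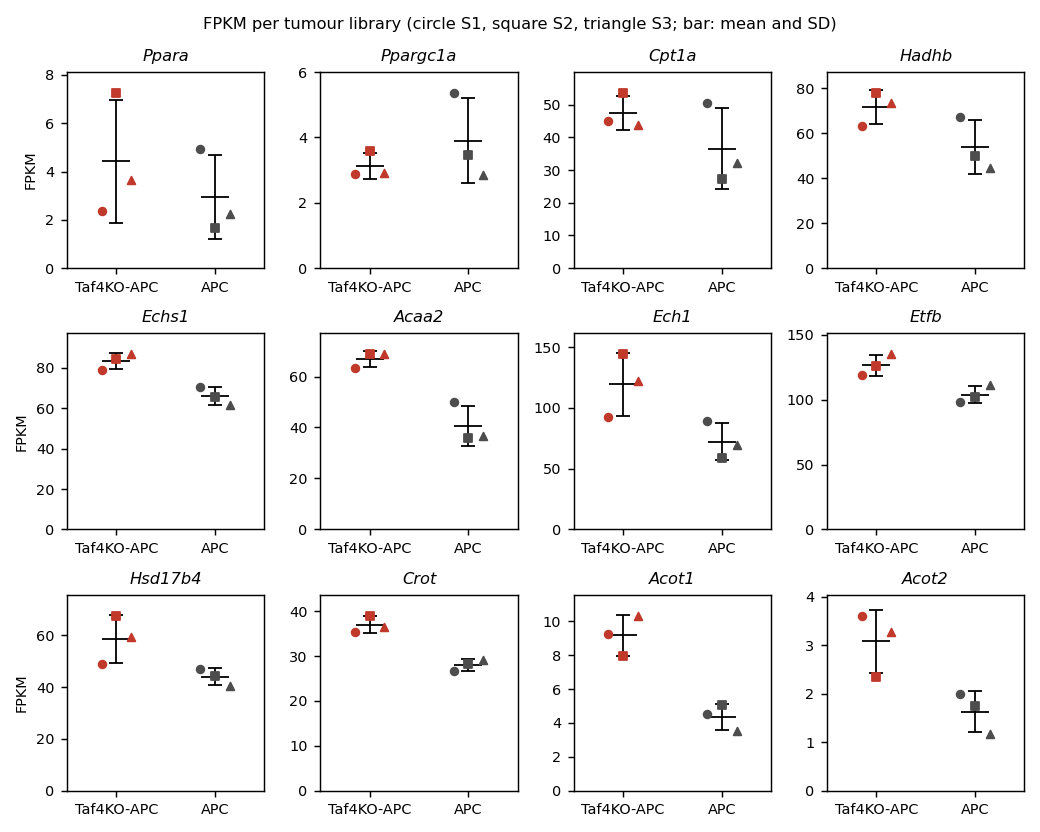
FPKM of 12 genes in each tumour library (circle S1, square S2, triangle S3), with mean and SD as bars, in Taf4KO-APC and APC tumours (n = 3 each). The third Taf4KO-APC library may not be an independent sample, and the bars include it. Acot1 lies between 7.92 and 10.3 in Taf4KO-APC, above all APC libraries, while Ppara, Ppargc1a, Cpt1a and Hadhb overlap between groups.

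Enterocyte markers summed to 684 to 2783 FPKM in Taf4KO-APC and 2362 to 5246 FPKM in APC. Of the 8 markers, 7 had a log2 fold change below 0. Limma called 1 of them lower, Mep1a (adjusted p = 0.0192), where it called 0.993% of all genes lower. Without library S3 of Taf4KO-APC limma called none of them, and the adjusted p of Mep1a was 0.168. Without S3 the Taf4KO-APC range of the summed level was also 684 to 2783 FPKM. All 6 smooth muscle markers had a fold change below 0 (102 to 159 FPKM in Taf4KO-APC and 160 to 477 FPKM in APC), as had all 4 T and NK cell markers (9.69 to 16.2 FPKM in Taf4KO-APC and 28.0 to 192 FPKM in APC), with none called. Genes of mitochondrial content had a median log2 fold change of 0.01. The part of these differences in the tumour values was not tested.

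Beyond the 33 genes, 81 further genes of fatty acid use and its control, chosen with earlier results known, were followed in the same way. In adult KO 2 of 74 above the floor were higher and 5 lower past 2 times, where 3.58% of all genes were higher and 6.58% lower, so the adult counts were near the shares of all genes. In embryo KO none of 73 was higher and 22 were lower (2.16% and 8.32% of all genes). Creb3l3, a membrane-bound transcription factor that works with PPAR alpha in liver, was lower at both stages, at 762 in adult KO and 1793 in adult WT, and 836 in embryo KO and 10396 in embryo WT. The lowest ratios in embryo KO were those of Gpd1, which links glycolysis to lipid synthesis (96.8 in KO and 1847 in WT), and of Acot12, a thioesterase for acetyl-CoA (6.86 and 123).

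With 4-OHT, 24 of 68 of these genes were higher and 3 lower past 2 times than in control, where 11.9% of all genes were higher and 11.3% lower. With EPZ 3 of 67 were higher and 29 lower than with 4-OHT alone (17.2% and 18% of all genes). Fabp1, a fatty acid binding protein, had 240.3 with EPZ, 18866 with 4-OHT and 724 in control. Creb3l3 had 107.6 with EPZ, 3838 with 4-OHT and 498 in control. In tumours limma called none of 71 higher and 1 lower, where 1.23% of all genes were called higher and 0.993% lower. That gene was Vnn1, a pantetheinase, with 6.85, 9.91 and 9.41 FPKM in Taf4KO-APC, against 47.8, 69.1 and 40.7 FPKM in APC (log2 fold change -2.44 ± 0.22, limma adjusted p = 0.0197, and 0.168 without the third Taf4KO-APC library). Vnn1 had 169 in adult KO and 792 in adult WT, and 14.0 in embryo KO and 17.03 in embryo WT. In organoids it had 20.2 with EPZ, 69.2 with 4-OHT and 13.2 in control, so it was higher with 4-OHT than in control.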

How the data were processed

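RNA was sequenced from 27 samples in 9 groups of 3, mapped by GEO's labels. By the submitters' processing notes and the study's methods, the authors used cutadapt 1.10 for trimming and Bowtie2 2.2.8 to discard rRNA, mapped the rest to mm9 with STAR 2.5.3a (mm9 and mm10 are listed for tumours) and counted unique reads per gene with HTSeq. The authors deposited for mice and organoids a signal, 1 mean of normalized counts (median-of-ratios) per gene and group, which carries no spread. The deposited tumour table holds FPKM per library from the authors. Their columns of fold changes and p-values were not used. The library kit is given differently in labels and methods, and whether counting used strand is not given in the sources used here.

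The 33 genes and all lists were chosen with earlier results of these data known. Group means were compared as log2 ratios with a pseudocount of 1 and a floor of 10 in the higher group. Tumour values, log2(FPKM + 1) of genes with a group mean of at least 1 FPKM, were tested with limma 3.58.1 in R 4.3.3 (eBayes with trend, 2-sided), a script tested on simulated data. In the results every gene was to be named by role, with full values for those past 2 times in 2 or more of the comparisons of Taf4 loss, for those that went opposite ways, and for Ppara, Ppargc1a and Cpt1a. Of the related genes at most 3 per direction and comparison were to be named, those with the largest change. A gene that this rule would name is not reported here. Sequences were read from RefSeq windows and located in NCBIM37 (mm9), and coding sequences were aligned with Biopython 1.88. Each tumour library carries a number of its own in the labels, taken here as an animal's, except that the third Taf4KO-APC library carries both numbers of its group. Alternatives varied the scaling, pseudocount, floor, threshold, filter, weights, block and libraries.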

Additional observations from a re-analysis of the deposited data

How the results depend on the processing

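The group means carry no spread, so no difference in embryos, adults or organoids has an error, and a count moves with the threshold. At 1.5 times instead of 2, 22 genes passed in embryo KO, all lower (16.2% of all genes), and 9 in adult KO, 8 higher and 1 lower (7.29% and 13.4%). In adult against embryo, 24 passed in KO, 19 higher and 5 lower (28.9% and 26.0%), and 16 in WT, 4 higher and 12 lower (26.4% and 23.3%). In organoids, 21 passed with 4-OHT against control, 19 higher and 2 lower (21.2% and 21.1%), and 16 with EPZ against control, 8 each way (23.3% and 23.7%). With group means scaled to equal totals, 6 passed in embryo KO, 4 in adult KO and 7 with 4-OHT. The cause was not tested. Other pseudocounts, floors and centring kept each count within 1.5 times, and no gene past 2 times changed sign under any setting run.

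In tumours, limma called 1 gene, Acot1, with a pseudocount of 0.1 FPKM, where its log2 fold change of 1.06 also exceeded 2 times. It called 0 of the 33 genes with no filter on low values, with library medians set equal or, at the pseudocount of 1, with a fold over 2 required as well, and 18 with array weights, a fit that stopped before it converged. Leaving out 1 library in turn gave 0 to 1 calls, and the 1 call, without APC library S1, was Acaa2 (log2 fold change 0.87) and not Acot1. Over these settings the adjusted p of Acot1 ran from 0.00262 to 0.262, and its log2 fold change from 0.81 to 1.07. With library medians set equal, limma called 47 genes higher and 82 lower among all genes, against 170 and 137 as reported. Array weights gave 4496 higher and 1377 lower, and single libraries left out gave 0 to 119 higher and 0 to 202 lower. The S number of the labels as a replicate block gave 0 calls among the 33 genes and 1 among all. The numbers share no animal by the labels, and deviations of same-numbered libraries correlated at -0.17, -0.20 and -0.04, so they were not treated as pairs. Each of the 33 genes had at least 50 reads in every tumour library. A test on recovered read counts was planned and not run.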
